A study of Rattus norvegicus with 20 samples.

Results

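Resting alveolar epithelial monolayers were compared with and without GSK2606414, an inhibitor of the kinase PERK, in 10 of the 20 libraries of a study of stretch injury. The 10 libraries were all those of unstretched cells, 5 with inhibitor (NS_PI) and 5 with vehicle (NS), paired by the animal that gave the cells. Type II pneumocytes isolated from Sprague-Dawley rats were cultured for 4 days on silastic membranes coated with fibronectin, where they turn into cells like those of alveolar type I. NS monolayers received 0.01% DMSO for 24 h. NS_PI monolayers received 1 µM GSK2606414, for 24 h according to the treatment protocol and for 18 h according to the design text, and the sources used here do not give their DMSO content. Each library held RNA pooled from 4 monolayers of 1 animal, so 5 animals gave n = 5 per group. For the rats, the sources used here give the strain but no age, sex or genotype. The other 10 libraries came from the same 5 animals after 6 h of biaxial cyclic stretch (15 per min, surface area enlarged by 25%), with vehicle (S, after 18 h of 0.01% DMSO) or with 1 µM GSK2606414 (S_PI, after 18 h).

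PERK, encoded by Eif2ak3, sits in the membrane of the endoplasmic reticulum and is activated when unfolded proteins accumulate there. It phosphorylates the initiation factor eIF2, which lowers protein synthesis in general while favouring translation of a few messages, among them that of the transcription factor ATF4. ATF4 then raises transcription of genes for amino acid synthesis, amino acid uptake and tRNA charging, and of stress regulators such as Ddit3 (CHOP) and Trib3. The kinases Eif2ak1, Eif2ak2 and Eif2ak4 feed into the same pathway from other stresses. ATF6 and the IRE1-XBP1 branch, the other sensors of the endoplasmic reticulum, mainly induce chaperones and factors of protein degradation.

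ATF4, with its C/EBP partners, binds a composite element with the letters TGATGNAA. The element was searched on both strands in the 250 bases before each gene's start (RefSeq, build GRCr8). The stretches below are shown because their genes are among those with the lowest values under inhibitor (Slc7a1, Trib3, Iars and Mars) or because they hold the same letters with little or uneven difference (Tars and Chac1). Each runs 5′ to 3′ on the strand of the gene, with the match in capitals (for 5 of the 6 it lies on the opposite strand and reads as the reverse complement).
Slc7a1, chr12:11664428-11664487 (+): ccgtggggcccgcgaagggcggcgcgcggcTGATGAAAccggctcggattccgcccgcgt
Trib3, chr3:161275534-161275584 (-): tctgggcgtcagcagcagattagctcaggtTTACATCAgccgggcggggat
Iars (Iars1), chr17:15193653-15193706 (-): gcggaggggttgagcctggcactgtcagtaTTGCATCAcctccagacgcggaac
Mars (Mars1), chr7:65023754-65023800 (-): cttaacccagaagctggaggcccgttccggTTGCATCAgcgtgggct
Tars (Tars1), chr2:62114803-62114859 (-): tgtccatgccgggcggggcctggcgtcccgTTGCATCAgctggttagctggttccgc
Chac1, chr3:126795934-126796001 (+): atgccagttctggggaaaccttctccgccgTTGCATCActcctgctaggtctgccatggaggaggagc
The match began 30 bases before the start of Slc7a1, 21 before Trib3, 24 before Iars, 17 before Mars, 27 before Tars and 167 before Chac1.

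The letters TGATGNAA stood in 899 of 27457 promoters of the RefSeq table (3.27%) and in 110 of the 6815 tested genes that had a promoter there (1.61%). Genes linked to ATF4 were listed in 4 groups: stress regulators, amino acid synthesis, amino acid transporters and cytosolic aminoacyl-tRNA synthetases. Of their 62 tested members, 49 had a promoter and 11 of these held the element (22.4%). Among synthetases it was 5 of 17 (29.4%), and among chaperones and foldases of the endoplasmic reticulum 0 of 20. Asns, a well studied target of ATF4, had no match in this window, which says only that these letters are not in these 250 bases. These are matches of letters and no measure of binding. The lists were made of genes linked to ATF4, so a share above that of all genes may follow from their choice. The 11 genes with a match had log2 fold changes (inhibitor over vehicle) from -0.98 (Trib3) to -0.05 (Slc38a1), with Got1 at -0.18 and Pck2 at -0.32.

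Genes for amino acid supply and tRNA charging had lower values with inhibitor. Of the 62 tested ATF4-linked genes, 53 had a log2 fold change (inhibitor over vehicle) below 0 (85.5%), against 50.3% of all 8320 tested genes. Their median was -0.40, against -0.00 for all genes. A further 17 listed genes were below the filter on low counts and are not part of these counts. The lists were chosen with earlier results of these data known, so these shares describe them and are no independent test. Slc7a1, Trib3, Asns, Iars, Nars, Mars, Yars, Gars, Atf3 and Slc7a11 were each lower in all 5 animals. Atf4, Ddit3 and Eif2ak3 themselves did not show that pattern. Chaperones of the endoplasmic reticulum had a median of 0.15, with 18 of 23 above 0.

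The number of genes that passed a test differed between fits. The main test was edgeR's quasi-likelihood F test in 1 fit of all 20 libraries with animal as a block, and a gene was called at a Benjamini-Hochberg adjusted p below 0.05. It called 0 of 8320 genes (0%), and the smallest adjusted p was 0.133, for Slc7a1. At an unadjusted p below 0.05, 455 genes passed (5.47%), 242 lower (2.91%) and 213 higher (2.56%). Of the 62 ATF4-linked genes, 28 were lower at that level and 0 higher. When each animal was given a separate block for its stretched and its unstretched pair, edgeR called 31 genes (0.373%), 25 lower (0.3%) and 6 higher (0.0721%). A fit of the 10 unstretched libraries alone called 27 of 7983 genes (0.338%), 17 lower (0.213%) and 10 higher (0.125%). DESeq2 on all 20 libraries called 5 genes, all lower (0.0601%): Slc7a1, Trib3, Cth, Iars and Nars. The fits with separate pairs and with unstretched libraries alone shared 20 genes, and 4 genes were called by both and by DESeq2. In what follows these 2 fits are named the fit with separate pairs and the unstretched-only fit, and "fell" or "rose" is used only with the fit that called the gene. Every log2 fold change given with ± (SE) is from the main fit, also where the adjusted p beside it is from another fit.

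Depth and cell type markers were set beside the comparison. The 10 unstretched libraries held 1320491 to 2320544 counts assigned to genes, and a count of 3, taken as the detection floor, corresponded to 1.29 to 2.27 CPM, the unit of all levels here (counts relative to each library's total, after TMM normalization). Depth with inhibitor minus vehicle was 112166 ± 370670 counts (mean and SD of the paired differences), higher in 4 of 5 animals (exact permutation of signs, two-sided, p = 0.5625; 5 animals allow no p below 0.0625). The type I marker Pdpn was at 1005 to 2737 CPM with vehicle and 1064 to 2972 with inhibitor, and Ager at 198 to 861 and 173 to 1263. Hopx was at 21.2 to 169 and 16.3 to 145 CPM, and Cav1 at 25.9 to 167 and 28.8 to 113. Of 20 tested type I markers 11 had a log2 fold change below 0 and 9 above, with a median of -0.03. Their sum was 4313 to 13070 CPM with vehicle and 4501 to 12545 with inhibitor, higher with inhibitor in 3 of 5 animals. The water channel Aqp5 was below the filter on low counts, at a mean of 4.92 CPM with vehicle. Sftpc, the type II surfactant gene, was at 1.18 to 58.2 and 1.86 to 37.7 CPM. The 17 tested type II markers summed to 3697 to 10276 and 3336 to 9810 CPM, higher with inhibitor in 2 of 5 animals. The 15 tested markers of transitional alveolar epithelial cells summed to more, 16006 to 36989 and 18762 to 37693 CPM, higher with inhibitor in 3 of 5. Of these 15, 11 had a log2 fold change below 0 and 4 above, with a median of -0.09. Of 25 macrophage and leukocyte markers 15 were tested, with Cd52 at 0, and their summed level was 1853 to 11102 CPM with vehicle and 1811 to 10530 with inhibitor, higher with inhibitor in 1 of 5 animals. Of 14 airway markers 4 were tested, and their sum was 738 to 2409 and 876 to 3523 CPM, higher with inhibitor in 5 of 5. Scgb1a1 alone was at 566 to 2254 and 620 to 3401 CPM. Of the 4 markers 3 had a log2 fold change above 0 and 1 below, and 1 was higher in all 5 animals. For fibroblast and smooth muscle markers (12 of 19 tested, Mfap4 at 0) the sum was 3360 to 7615 and 3337 to 10800 CPM, higher in 3 of 5. The globin genes Hba1, Hba2, Hbb and Hbb-b1 were at 0, and Hbe1 was below the filter with some counts among the 20 libraries. The part of these other cells in the results was not tested, and in bulk libraries fewer cells of a type and less RNA per cell cannot be told apart.

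Animal was the main source of variation among the resting libraries. It accounted for 76.8% of the variance over genes in the 10 unstretched libraries and the inhibitor for 6.53%, with 16.6% left. These are shares of summed squares, not divided by degrees of freedom, of which animal and the remainder each have more than the inhibitor. Animal 1 stood apart in part of the genes described here, and not in others such as Asns, Atf3 and Iars. Its vehicle library had low levels of Trib3 (21.7 CPM), Cth (2.31 CPM) and Slc7a11 (26.3 CPM), below the vehicle libraries of the other 4 animals. The median within-animal log2 difference over the 62 ATF4-linked genes was -0.05 in animal 1, -0.65 in animal 2, -0.66 in animal 3, -0.33 in animal 4 and -0.28 in animal 5. Without animal 1, the main test called 3 genes, Cth, Slc7a1 and Trib3, all lower. Without animal 2 it called 0 (smallest adjusted p 0.972), and without animal 3 also 0 (0.999). At an unadjusted p below 0.05, 123 of 8322 genes were lower and 172 higher without animal 2. The same counts without animal 3 were 132 and 156 of 8356 genes. The low values thus depended most on animals 2 and 3.

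**Figure D1:**
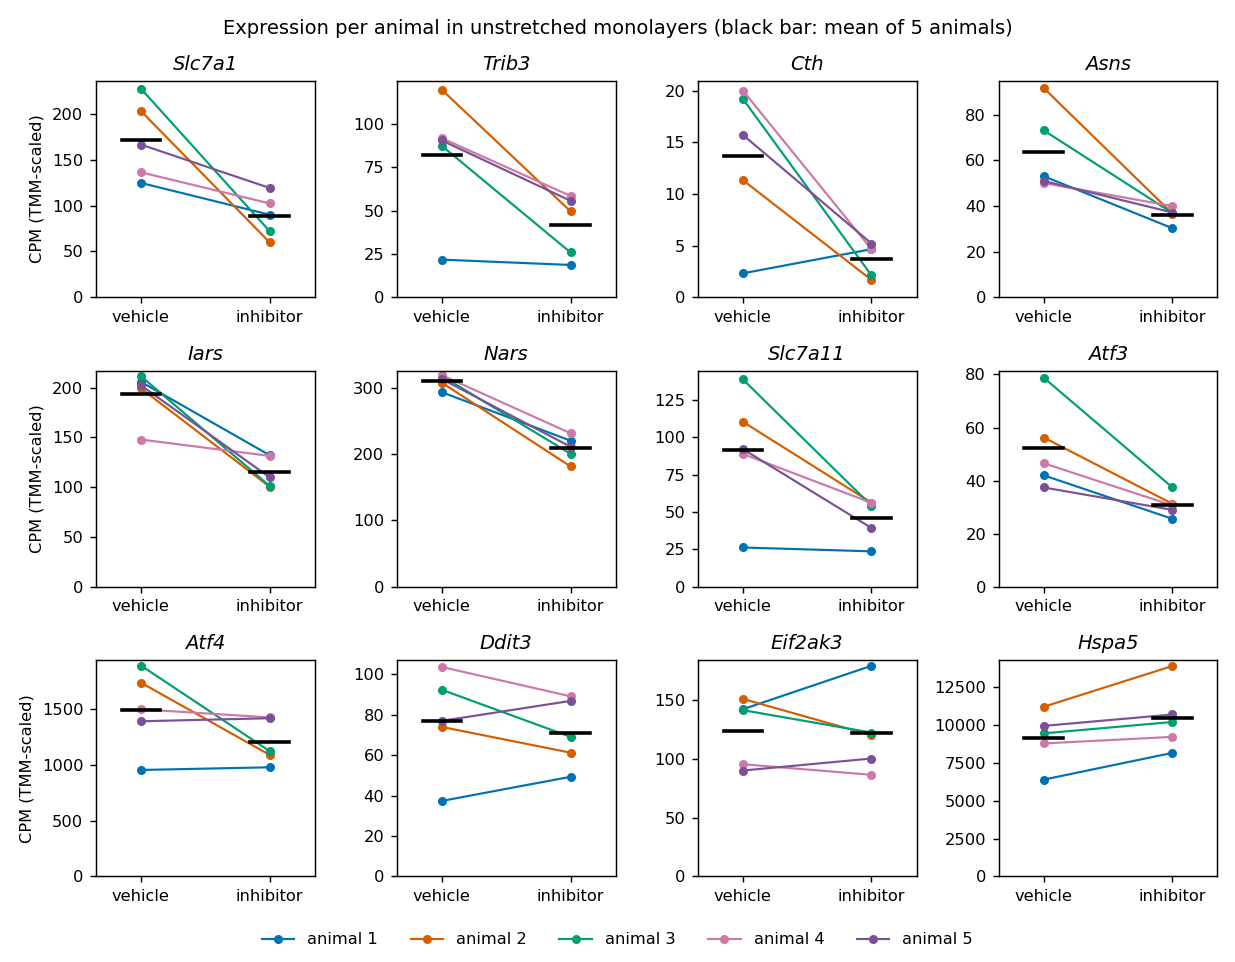
CPM (vertical axes, linear, from 0) of 12 genes in the vehicle and inhibitor library of each animal, with 1 coloured line per animal and a black bar at the mean of 5. Lines of Slc7a1, Asns, Iars and Nars run down in all 5 animals with no overlap of the groups, animal 1 lies low and flat for Trib3 and Slc7a11, and Eif2ak3 runs up in animals 1 and 5 and down in the others.

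The kinase that the compound targets and the entry point of the pathway were measured first. Eif2ak3 (PERK) was at 142, 151, 141, 95.4 and 90.0 CPM with vehicle in animals 1 to 5 and at 179, 120.0, 122, 86.4 and 100.3 CPM with inhibitor. The groups overlapped over most of their range, and the log2 fold change was -0.01 ± 0.22 (SE), or 0.01 with upper-quartile scaling. A kinase inhibitor acts on the protein, so this level is no check of its action. Atf4 was at 953, 1734, 1887, 1496 and 1389 CPM with vehicle and 977, 1088, 1122, 1423 and 1416 CPM with inhibitor. It was lower by more than 0.6 on the log2 scale in animals 2 and 3 (-0.67 and -0.75) and between -0.07 and 0.04 in the other 3, for a fitted value of -0.27 ± 0.15 (edgeR adjusted p = 0.913), which was -0.17 without animal 2 and -0.14 without animal 3. Of 18 tested genes in the list of eIF2 kinases, eIF2B subunits, eIF2 phosphatase subunits and stress sensors, 10 were lower and 8 higher, with a median of -0.05. Eif2ak4, the kinase GCN2 that senses uncharged tRNA, had 0.35 ± 0.16 and was higher in 4 of 5 animals. Ern1, Mbtps1 and Mbtps2 were below the filter.

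Among the stress regulators and effectors downstream of ATF4, Trib3 and Atf3 had the lowest values relative to their errors. Trib3, a pseudokinase that restrains ATF4 and AKT, was at 21.7, 119.9, 87.4, 91.9 and 90.6 CPM with vehicle and 18.6, 49.6, 25.8, 58.5 and 55.7 CPM with inhibitor. All inhibitor libraries lay below the vehicle libraries of animals 2 to 5, and the vehicle library of animal 1 lay among the inhibitor libraries. Its log2 fold change was -0.98 ± 0.20 (edgeR adjusted p = 0.275), and it fell by DESeq2 (adjusted p = 0.0250), in the fit with separate pairs (0.0149) and in the unstretched-only fit (0.0241). Atf3, a transcription factor of the same family, was at 42.0, 56.2, 78.8, 46.5 and 37.4 CPM with vehicle and 25.6, 31.3, 37.4, 30.7 and 29.0 CPM with inhibitor. It was lower in every animal, and the groups met only at the highest inhibitor library and the lowest vehicle library. It fell in the fit with separate pairs (-0.73 ± 0.18 in the main fit; adjusted p = 0.0279) and in the unstretched-only fit (0.0277).

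The other stress effectors were less even. Ddit3, which encodes the proapoptotic factor CHOP, was at 37.4, 74.0, 92.4, 104 and 77.0 CPM with vehicle and 49.3, 61.3, 69.1, 89.2 and 86.9 CPM with inhibitor. It was higher in animals 1 and 5 and lower in the others, with a log2 fold change of -0.09 ± 0.15. Chac1, a glutathione-degrading enzyme, was lower in animals 1, 2, 3 and 5 and higher in animal 4 (-0.56 ± 0.30). Animal 2 had the widest difference of Chac1 (-1.78, the others -0.74 to 0.22), and without it the fitted value was -0.32. Ppp1r15a, the stress-induced subunit of the eIF2 phosphatase, was lower in animals 2 to 5 (log2 differences of -0.82 to -0.45) and higher in animal 1 (0.56). Sesn2, a stress-induced regulator of mTORC1, had 0.09 ± 0.19. In all, 13 of 15 tested members of this list were below 0 with a median of -0.20, 3 of them in all 5 animals, where 6.2% of all tested genes were lower in all 5. At an unadjusted p below 0.05 there were 4 lower and 0 higher (2.91% and 2.56% of all tested genes). Another 7 (Atf5, Nupr1, Gdf15, Fgf21, Stc2, Tnfrsf10b and Jdp2) were below the filter.

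Among enzymes of amino acid synthesis, 12 of 15 tested members were below 0. The fit with separate pairs called 4 lower (0.3% of all tested genes) and the unstretched-only fit 2 (0.213%). Asns, asparagine synthetase, was at 53.1, 91.8, 73.2, 50.1 and 51.0 CPM with vehicle and 30.2, 36.7, 36.9, 39.9 and 37.1 CPM with inhibitor. Every inhibitor library lay below every vehicle library, a separation seen in 0.553% of all tested genes. It fell in the fit with separate pairs (-0.83 ± 0.24; adjusted p = 0.0261) and in the unstretched-only fit (0.0277), and had an adjusted p of 0.574 in the main edgeR test. Shmt2, the mitochondrial serine hydroxymethyltransferase that feeds the folate cycle, was at 32.3, 44.4, 78.8, 74.8 and 81.4 CPM with vehicle and 27.0, 27.1, 49.0, 41.8 and 38.6 CPM with inhibitor. It was lower in every animal though the groups overlapped, since animals 1 and 2 were low with either treatment. Shmt2 fell in the fit with separate pairs (-0.73 ± 0.17; adjusted p = 0.0226) and in the unstretched-only fit (0.0277).

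Cth, which makes cysteine from cystathionine, had the largest log2 fold change of the list at -1.81 ± 0.39, near the detection floor. It was at 2.31, 11.3, 19.2, 20.0 and 15.7 CPM with vehicle and 4.65, 1.67, 2.11, 4.64 and 5.20 CPM with inhibitor. Animal 1 had the lowest vehicle value and the opposite direction, while the log2 differences of the other 4 animals were -2.66 to -1.42. Cth fell by DESeq2 (adjusted p = 0.0251) and in the fit with separate pairs (0.0198), and did not enter the unstretched-only fit.

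The serine pathway enzymes Phgdh and Psat1 were lower in all 5 animals, with -0.61 ± 0.19 and -0.41 ± 0.19, and neither was called in any of these fits. Psph, the last enzyme of that pathway, had -0.64 ± 0.24 and was lower in 4 of 5. Bcat1, a transaminase of branched-chain amino acids, was lower in each animal (-0.79 to -0.34) and fell in the fit with separate pairs only (-0.55 ± 0.31; adjusted p = 0.0463). Mthfd2, a mitochondrial folate enzyme, shows the spread between animals, with 1.31 in animal 1, -1.42 in animal 3 and a fitted -0.51 ± 0.27 (-0.92 without animal 1 and -0.22 without animal 3). Of the 15 tested members 5 were lower in all 5 animals (6.2% of all tested genes), and the median was -0.41. At an unadjusted p below 0.05, 6 were lower and 0 higher (2.91% and 2.56% of all tested genes). Shmt1, Aldh18a1, Pycr1, Cbs and Gpt2 were below the filter.

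Slc7a1 had the smallest p of all 8320 genes. It encodes the carrier of arginine, lysine and ornithine, and was at 125, 204, 228, 137 and 167 CPM with vehicle and 90.3, 60.0, 72.2, 103 and 119.6 CPM with inhibitor. All 5 inhibitor libraries lay below all 5 vehicle libraries, with the widest differences in animals 2 and 3 (-1.74 and -1.64). The fitted level was 51.6% of vehicle, with means going from 172 ± 43.7 to 88.9 ± 23.7 CPM (SD, n = 5), and the log2 fold change was -0.95 ± 0.17 (edgeR unadjusted p = 1.60e-05). It fell by DESeq2 (adjusted p = 0.00117), in the fit with separate pairs (0.0113) and in the unstretched-only fit (0.0277).

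Slc7a11, the cystine-glutamate exchanger, was at 26.3, 111, 139, 89.0 and 92.2 CPM with vehicle and 23.7, 56.3, 54.3, 56.2 and 39.4 CPM with inhibitor. Animal 1 was low and nearly level, and the other 4 had log2 differences of -1.34 to -0.65. It fell in the fit with separate pairs (-0.93 ± 0.23; adjusted p = 0.0118) and in the unstretched-only fit (0.0213). Slc7a5 and Slc3a2, the light and heavy chain of the leucine transporter, were lower in 3 and 4 of 5 animals (-1.03 ± 0.37 and -0.40 ± 0.21) and higher in animal 1 by 0.94 and 0.42. Without animal 1 they were at -1.54 and -0.62, and Slc7a5 was at -0.65 without animal 3. Of 13 tested transporters 11 were below 0, 3 in all 5 animals (6.2% of all tested genes), with a median of -0.40. At an unadjusted p below 0.05, 6 were lower and 0 higher (2.91% and 2.56% of all tested genes). The median of the transporters was -0.62 without animal 1, which moved it by over 1.5 times. Slc1a4, Slc38a4, Slc43a1, Slc36a1 and Slc36a4 were below the filter.

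The cytosolic aminoacyl-tRNA synthetases, which load amino acids onto tRNAs, had a median of -0.54, the lowest of the 4 groups when all animals were used. Without animal 1 the transporters were lower (-0.62 against -0.59), and without animal 2 the synthetase median was -0.35. All 20 listed genes were tested, 18 were below 0, and 13 were lower in all 5 animals (6.2% of all tested genes). Of the 20, 12 were lower and 0 higher at an unadjusted p below 0.05 (2.91% and 2.56% of all tested genes). In 6 of the 20 no inhibitor library reached any vehicle library (0.553% of all tested genes). The fit with separate pairs called 7 lower (Mars, Iars, Yars, Gars, Eprs, Sars and Nars; 0.3% of all tested genes) and the unstretched-only fit 5 lower (0.213%).

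Nars, for asparagine, was at 293, 307, 318, 319 and 313 CPM with vehicle and 220.1, 181, 200.4, 231 and 211 CPM with inhibitor. The groups were far apart relative to their spread (SD of 10.4 and 19.1 CPM), and the fitted level with inhibitor was 67.1% of vehicle. Its log2 fold change was -0.58 ± 0.13 (edgeR adjusted p = 0.275), and it fell by DESeq2 (0.0250) and in both other fits (0.0149 and 0.0264). Iars, for isoleucine, was at 206, 199, 211, 148 and 202 CPM with vehicle and 132, 100.5, 101, 131 and 109.9 CPM with inhibitor. Its groups did not overlap, with animal 4 showing the smallest difference (-0.17) and animal 3 the largest (-1.05). Iars fell by DESeq2 (-0.75 ± 0.16; adjusted p = 0.0377) and in both other fits (0.0152 and 0.0233).

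Mars, for methionine, had the lowest fitted value of the synthetases, -0.76 ± 0.20, from 147 ± 47.8 to 85.7 ± 16.4 CPM, and fell in the fit with separate pairs (adjusted p = 0.0113) and in the unstretched-only fit (0.0231). Yars (tyrosine) went from 61.8 to 94.3 CPM with vehicle to 41.3 to 52.0 CPM with inhibitor, and Gars (glycine) from 214 to 311 to 152 to 191, both without overlap. Their log2 fold changes were -0.72 ± 0.18 and -0.63 ± 0.18, and both fell in both of these fits. Eprs (glutamate and proline) and Sars (serine), at -0.62 ± 0.15 and -0.59 ± 0.14, fell in the fit with separate pairs alone (adjusted p = 0.0363 and 0.0399).

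The 13 synthetases that the fit with separate pairs did not call had fitted values from -0.57 (Cars) to 0.19 (Qars). Cars, Vars, Aars and Lars (cysteine, valine, alanine and leucine) were between -0.57 and -0.53 and lower in all 5 animals, though Aars and Lars were at -0.36 and -0.33 without animal 2. Tars (threonine), whose promoter holds the same letters as Iars and Mars, was lower in animals 2, 3 and 4 and higher in the other 2 (-0.21 ± 0.19). Wars, Rars and Kars (tryptophan, arginine and lysine) were within 0.10 of 0. Farsa (the alpha subunit for phenylalanine) and Qars (glutamine) were the 2 above 0, with 0.17 ± 0.20 (-0.012 without animal 1) and 0.19 ± 0.12. Xpot, which exports tRNAs from the nucleus and was in none of the 4 lists, was at 100.1, 159, 124, 70.1 and 97.1 CPM with vehicle and 89.8, 80.4, 60.1, 64.6 and 54.2 CPM with inhibitor. It was lower in every animal and fell in the fit with separate pairs (-0.65 ± 0.18; adjusted p = 0.0399).

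**Figure D2:**
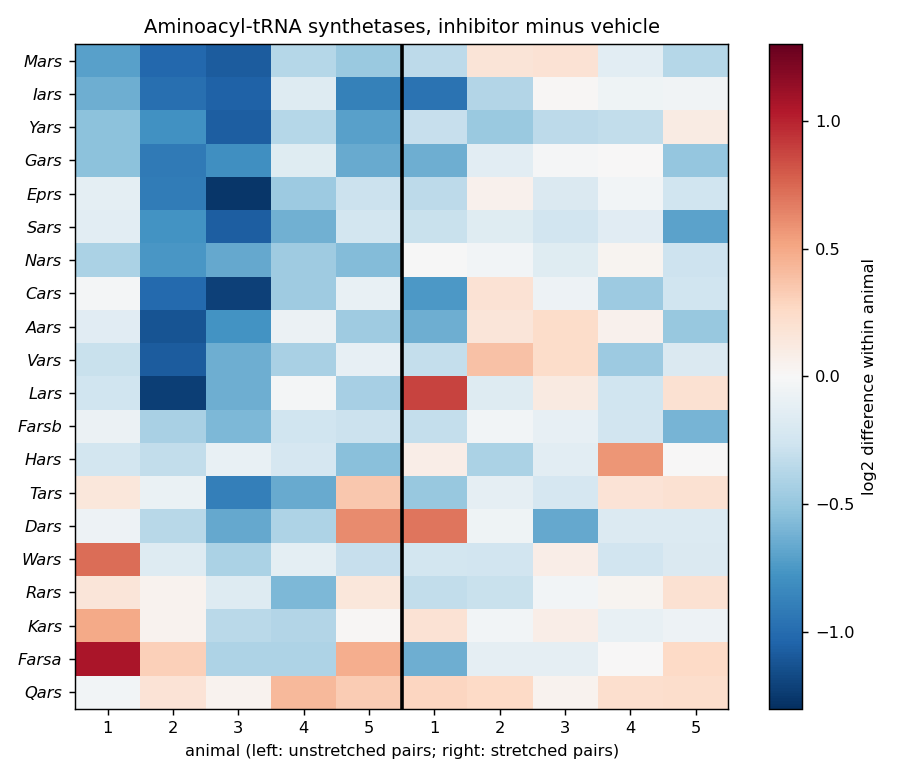
Log2 difference of inhibitor minus vehicle within each animal (colour, blue for lower and red for higher) for the 20 synthetases, ordered by their fitted log2 fold change in unstretched cells, with unstretched pairs on the left and stretched pairs on the right. Blue fills the upper left in animals 2 and 3 most, Farsa and Wars are red in animal 1, and the right side is paler, with a median of -0.14 against -0.54.

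Chaperones and foldases of the endoplasmic reticulum, the classical output of the ATF6 and XBP1 branches, lay slightly above 0. Of 23 tested members 18 were above 0 (4138 of all 8320 tested genes), with a median of 0.15. Of the 23, 5 were higher in all 5 animals, where 5.22% of all tested genes were. At an unadjusted p below 0.05 there were 3 higher (Sdf2l1, Pdia4 and Hyou1) and 0 lower (2.56% and 2.91% of all tested genes). Hspa5 (BiP), the main chaperone of this compartment, was at 6384, 11187, 9435, 8769 and 9926 CPM with vehicle and 8148, 13876, 10184, 9202 and 10678 CPM with inhibitor. It was higher in every animal by 0.07 to 0.35 on the log2 scale, less than the differences between animals (0.19 ± 0.17; edgeR adjusted p = 0.957).

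Sdf2l1, a cofactor that BiP uses in folding, was at 93.2, 203, 144, 224 and 266 CPM with vehicle and 129.8, 277, 299.5, 269.9 and 352 CPM with inhibitor. Animal 3 had the widest difference (1.05) and the other 4 had 0.26 to 0.47. Sdf2l1 rose in the fit with separate pairs (0.54 ± 0.21; adjusted p = 0.0399) and missed the threshold in the unstretched-only fit (0.0692). Pdia4, a disulfide isomerase, and Hyou1, an exchange factor for BiP, had 0.35 ± 0.15 and 0.36 ± 0.16.

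Derl3, a channel component that pulls misfolded proteins out for degradation, went from 13.4, 22.7, 14.3, 15.3 and 18.4 CPM to 14.4, 42.1, 38.5, 26.9 and 36.4 CPM. It was nearly level in animal 1 and higher by 0.77 to 1.37 in the other 4, and rose in the unstretched-only fit alone (0.92 ± 0.33; adjusted p = 0.0485). Of 19 tested genes of that degradation pathway 13 were above 0 (4138 of all 8320 tested genes), with a median of 0.06. Xbp1 and Atf6 were at -0.20 ± 0.22 and -0.37 ± 0.22, Hsp90b1 at 0.18 ± 0.18, Dnajb9 at -0.11 ± 0.16 and Herpud1 at 0.05 ± 0.18.

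**Figure D3:**
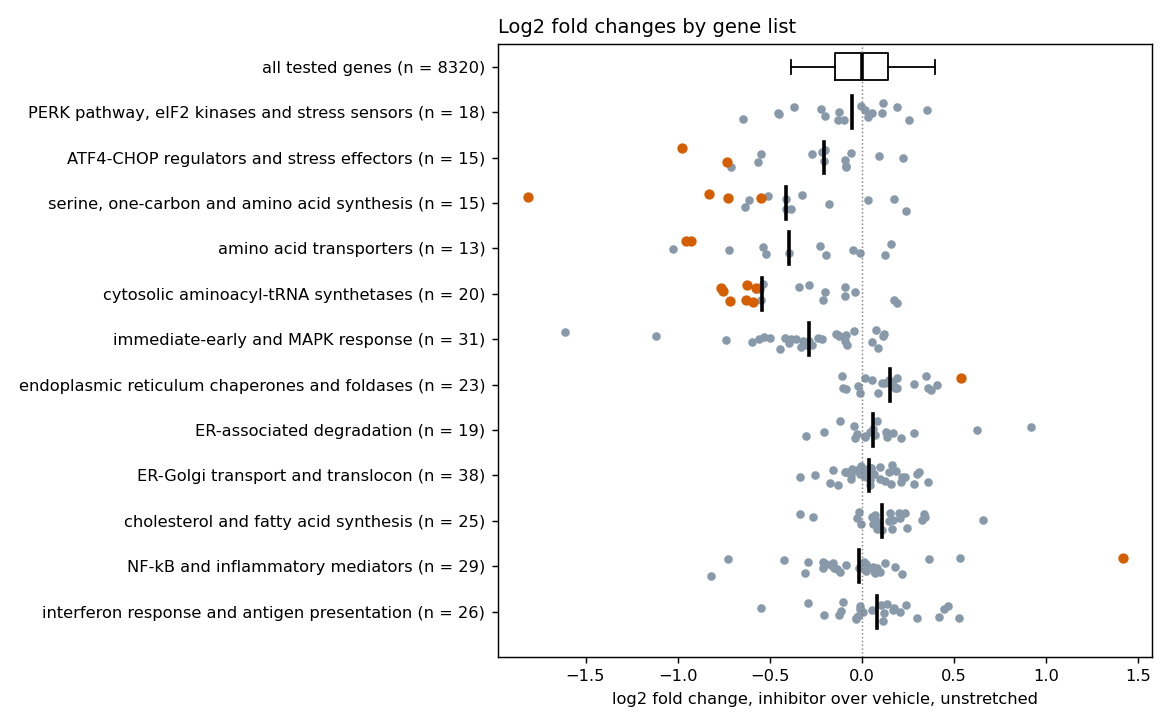
Fitted log2 fold change of each tested gene (points, with vertical jitter) in 12 lists, with a black bar at each median, and a box for all 8320 genes (quartiles, with whiskers at the 5th and 95th percentiles). Orange points passed in the fit with separate pairs; the 4 ATF4-linked lists have their medians at -0.20, -0.41, -0.40 and -0.54, and chaperones theirs at 0.15.

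Over all alternatives with separate pairs, unstretched libraries alone or DESeq2, 38 genes passed at least once, 26 lower and 12 higher. Of the 26 lower genes 15 were in the 4 ATF4-linked lists and 11 were not. Of the 26, 22 were lower in all 5 animals (6.2% of all tested genes). Of the 12, 11 were higher in all 5 (5.22% of all tested genes). The fits picked these genes on the differences of the same 5 animals, so this evenness is partly given by the choice.

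The 11 lower genes outside those lists, which were picked by these fits and not from a list, included Areg, Inhba and Tnfaip6. Areg, a ligand of the EGF receptor, was at 183, 337, 259, 103 and 107 CPM with vehicle and 134, 148, 127, 81.7 and 68.3 CPM with inhibitor. It was lower in every animal and fell in the fit with separate pairs (-0.68 ± 0.26; adjusted p = 0.0196) and in the unstretched-only fit (0.0241). Inhba, the activin A subunit, differed widely between animals, from 92.8 to 723 CPM with vehicle, and was lower within each, falling in both of these fits (-0.60 ± 0.34; adjusted p = 0.0394 and 0.0440). Tnfaip6, which binds hyaluronan, fell in both as well (-0.71 ± 0.32; adjusted p = 0.0276 and 0.0440).

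Nop58, Eif3j, Eea1, Ch25h and Map1b were also among the 11. Nop58, a core protein of box C/D small nucleolar particles, was at 228, 259, 194, 234 and 241 CPM with vehicle and 161, 171, 137, 184 and 131 CPM with inhibitor. Its groups did not overlap, and it fell in both fits (-0.56 ± 0.20; adjusted p = 0.0253 and 0.0277). Eif3j, a loosely bound subunit of initiation factor eIF3, was lower in each animal (-0.58 to -0.40) and fell in the fit with separate pairs (-0.47 ± 0.16; adjusted p = 0.0394). Eea1, a tether of early endosomes, fell in both (-0.57 ± 0.14; adjusted p = 0.0165 and 0.0277). Ch25h, the cholesterol 25-hydroxylase, was lower in animals 2 to 5 and level in animal 1, and fell in the fit with separate pairs (-1.15 ± 0.27; adjusted p = 0.0399). Map1b, a protein of microtubules, fell there as well (-0.56 ± 0.22; adjusted p = 0.0394).

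Among the higher genes were the chemokines Ccl20 and Ccl1. Ccl20, which attracts cells bearing CCR6, was at 33.2, 22.7, 39.7, 19.4 and 40.1 CPM with vehicle and 54.4, 37.9, 163, 98.5 and 92.1 CPM with inhibitor. It was higher in every animal, most in animals 3 and 4 (2.01 and 2.28), and only the inhibitor library of animal 2 overlapped the vehicle group. Ccl20 rose in the fit with separate pairs (1.42 ± 0.38; adjusted p = 0.00178) and in the unstretched-only fit (0.00932), and had an adjusted p of 0.495 in the main edgeR test and 0.660 by DESeq2. Ccl1 rose in both of these fits (0.98 ± 0.29; adjusted p = 0.0261 and 0.0100) and was higher in every animal.

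Ccl20 was 1 of 29 tested genes in the list of NF-kB and inflammatory mediators, and Ccl1 was not listed. Of the 29 genes 15 were below 0 and 14 above, with a median of -0.02. Il1b fell in the unstretched-only fit (-0.82 ± 0.27; adjusted p = 0.0343), lower in animals 2 to 5. Hspa1a, an inducible cytosolic heat shock protein, was at 22.6, 16.8, 22.3, 24.2 and 39.6 CPM with vehicle and 32.6, 44.2, 37.4, 40.9 and 49.8 CPM with inhibitor, and rose in the fit with separate pairs (0.69 ± 0.23; adjusted p = 0.0263). C3, the central complement component, rose in the unstretched-only fit (0.61 ± 0.25; adjusted p = 0.0343). The genes with the smallest p among the higher ones were LOC691995, Arhgef25, Ccl20, Emilin1 and Crispld2, at 0.90 ± 0.21, 0.58 ± 0.15, 1.42 ± 0.38, 0.85 ± 0.24 and 0.79 ± 0.23, and each was higher in all 5 animals. Emilin1, a matrix glycoprotein, and Arhgef25 rose in the unstretched-only fit (adjusted p = 0.0277 and 0.0485), and LOC691995 rose there (0.0264) and in the fit with separate pairs (0.0149).

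The compound is known to inhibit RIPK1 and KIT as well as PERK. Of 9 genes listed around these kinases and necroptosis, 4 were tested, all 4 between -0.29 and -0.16, and Kit was below the filter. These levels do not bear on kinase activity.

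The same comparison after 6 h of stretch (S_PI against S, same animals, no shared library) was set beside the unstretched one. It called 0 genes with edgeR in the main fit (340 at an unadjusted p below 0.05, 4.09%, with 161 lower, 1.94%, and 179 higher, 2.15%), 0 with DESeq2, 0 with separate pairs and 0 with the stretched libraries alone. Of the 62 ATF4-linked genes 39 were below 0 in stretched cells, with a median of -0.09, where 51.7% of all genes were below 0, and 4 lower and 1 higher passed at an unadjusted p below 0.05. Per animal, the median over the 62 genes was -0.28, -0.10, 0.01, -0.05 and -0.09 in stretched cells.

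Trib3 and Slc7a1 were lower in all 5 animals in stretched cells too, with -0.75 ± 0.20 and -0.40 ± 0.17. Nars, Asns and Shmt2 were near 0 there, with -0.08 ± 0.12, -0.13 ± 0.24 and 0.01 ± 0.16. Slc7a11 was 0.23 ± 0.22 in stretched against -0.93 ± 0.23 in unstretched cells, and Chac1 0.47 ± 0.27 (higher in all 5 animals) against -0.56 ± 0.30.

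The interaction, which tests whether the inhibitor difference itself differs between stretched and unstretched cells, called 0 genes with edgeR (smallest adjusted p 0.984), 0 with DESeq2 and 0 with separate pairs. At an unadjusted p below 0.05 it gave 345 genes (4.15%), 173 of them with a higher value in stretched cells (2.08%) and 172 with a lower one (2.07%). Of the 62 ATF4-linked genes 13 were among them, all 13 with the higher value in stretched cells. Slc7a11 had an interaction of 1.16 (unadjusted p = 0.00169, edgeR), Shmt2 0.73, Chac1 1.03 and Nars 0.49. In 51 of the 62 the stretched value was the higher one, against 50.3% of all tested genes. No gene was thus shown to respond differently to the inhibitor in the 2 states. Over all 8320 genes the log2 fold changes of the 2 comparisons had a Pearson r of 0.04, a description across genes, which are not independent, from libraries of the same 5 animals.

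**Figure D4:**
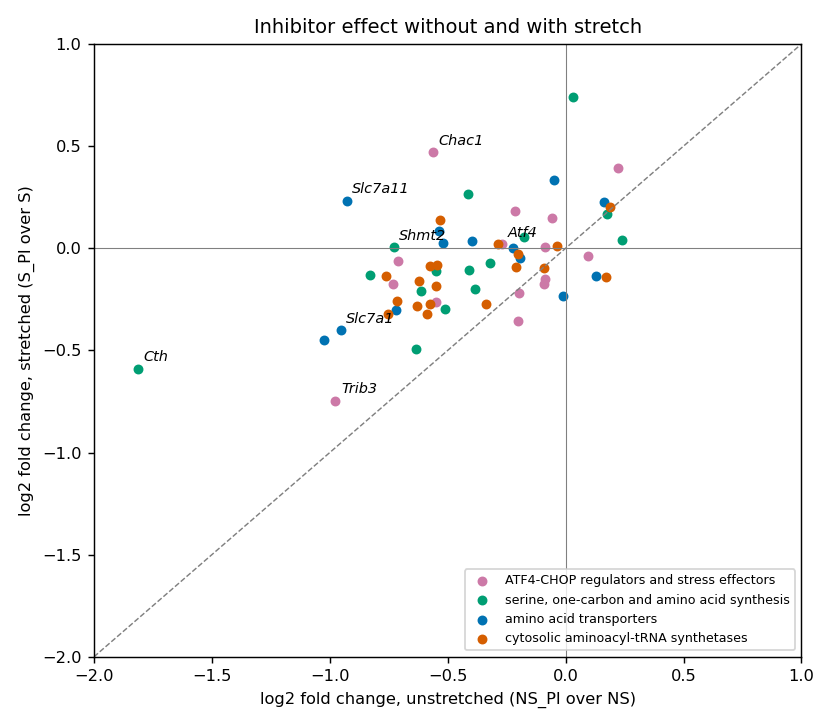
Fitted log2 fold change of inhibitor over vehicle in unstretched (horizontal axis) and stretched cells (vertical axis) for the 62 ATF4-linked genes, coloured by list, with equal values on the dashed line. Most points (51 of 62) lie above the dashed line; Trib3 and Slc7a1 are low on both axes and Slc7a11 and Chac1 only on the horizontal one.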

How the data were processed

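RNA was read by QuantSeq 3' sequencing (forward), which yields about one fragment per transcript near its 3' end. The authors deposited raw counts per gene symbol for 17337 symbols in 20 libraries; reads were aligned to rn6 with STAR and counted with HTSeq, per the submitters' processing notes, with versions, annotation and strand setting not given in the sources used here. Genes overlapping another gene or with near-identical copies are therefore uncertain. The 5 HTSeq summary entries (60.7 to 71.7% of records in unstretched libraries) were left out. The authors' DESeq2 table was not used, since its header names no groups.

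Counts were filtered with filterByExpr on the 4 groups (8320 genes; 8231 found in the RefSeq gene table, 488 of them through a synonym), normalized with TMM factors, then tested by quasi-likelihood F tests in edgeR (R 4.3.3, edgeR 4.0.16, limma 3.58.1) with group and animal in 1 fit of 20 libraries (12 residual degrees of freedom, against 8 with separate pairs and 4 with unstretched libraries alone). The median SE was 0.20, a 95% interval of about 0.41 to each side. Log2 differences within animals used a prior count of 2. The replicate number names the animal: libraries of the same animal correlated with r of 0.39 to 0.79 in their deviations from group means, different animals with -0.52 to 0.44, and 10 of 10 unstretched libraries correlated best with their own animal. DESeq2 1.42.0, other scalings, filters and blocks, and leaving out each animal were alternatives. Scripts were tested on simulated data. Figures used Python 3.11.15 and matplotlib 3.10.9. P-values of fits with animal as a block rest on the spread left after each animal's level is removed, which the main fit pools over all 4 groups. Floors cover counting error only.

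The genes compared, the gene lists and the tests were chosen with earlier results of these data known. Named genes were 28 preset genes, the 5 smallest p in each direction at 10 CPM or more (no gene having passed), and the member of each list with the smallest p. Genes passing an alternative, further members of the 4 ATF4-linked lists and some of other lists, such as Klf6, were added after their values were seen. Some named genes, such as Edem2, Mvk, Hspa4l and Ifitm3, are not described in the text. Lists are described by counts and medians, without a test of the list.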

Additional observations from a re-analysis of the deposited data

Results flagged for a closer look

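In 111 genes the 5 within-animal log2 differences of inhibitor minus vehicle were checked for 1 animal far from the other 4 (Dixon's test at 95%, critical value 0.71 for 5 samples). The depths of the NS and of the NS_PI libraries were checked likewise, which made 113 checks. A distant animal was found in 10 genes and in neither check of depth, and chance flags about 1 in 20. Animal 3 was the distant one for Sesn2 (-0.84, the others 0.16 to 0.55), Pdpn (-0.145, the others 0.08 to 0.12), Sdf2l1 (1.05), C3 (1.17) and Map1b (-1.13). Animal 1 was distant for Ppp1r15a (0.564, the others -0.82 to -0.45) and for Slc3a2 (0.416, the others -0.70 to -0.56). Animal 2 stood out for Amigo3 (1.67), animal 4 for Atp5g1 (0.122, the others 0.33 to 0.35) and animal 5 for Pard3 (0.479, the others -0.65 to -0.36).

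The 111 genes were also checked for opposite signs in unstretched and stretched cells in every animal, and how many of all tested genes show this was not counted. Vegfa, the angiogenic factor that type I cells express, had this pattern, though animal 4 was nearly level in unstretched cells. With inhibitor Vegfa went from 222, 448, 282, 147 and 213 to 183, 276, 260.5, 144 and 139.6 CPM in unstretched cells, lower in all 5 animals (-0.36 ± 0.13), and it was higher in all 5 in stretched cells (0.20 ± 0.13). The interaction was 0.561 on the log2 scale (edgeR unadjusted p = 0.00716, adjusted p = 0.984), so the difference was tested and did not pass after adjustment.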

How the results depend on the processing

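The count of genes called between NS_PI and NS was 0 in the main fit and stayed 0 with the size factors of DESeq2, upper-quartile scaling, library size only, a minimum mean of 5 CPM and no replicate block (0 called, 153 at an unadjusted p below 0.05). It was 31 with a replicate block for each animal and stretch state, 27 in the unstretched libraries alone with the replicate block, 5 with DESeq2, 4 without a filter (Ccl20 higher; Cth, Slc7a1 and Trib3 lower; 13243 genes tested), and 0 to 3 when 1 animal was left out, the 3 being without animal 1. The cause of these differences was not tested. The stretched comparison and the interaction gave 0 in each alternative that could be run. The depth difference was 38168 to 265447 counts when 1 animal was left out.

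Of 1550 alternative values for 111 named genes, 1466 kept direction and side of the threshold, 70 passed it newly and 14 changed sign, in 8 genes. Eif2ak3 became 0.011 with upper-quartile scaling, 0.0022 without a filter and 0.0030 with the minimum of 5 CPM. When 1 animal was left out, its log2 value ranged from -0.12 to 0.075, Ddit3 from -0.18 to 0.0073, Sesn2 from -0.034 to 0.32, Herpud1 from -0.080 to 0.19, Sftpc from -0.40 to 0.0067, Farsa from -0.012 to 0.35, Kars from -0.17 to 0.065 and Rars from -0.14 to 0.048. Depth limits low genes: inhibitor libraries of Cth and Ch25h had values as low as 1.67 and 2.08 CPM, beside a floor of 1.29 to 2.27 CPM.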

Other observations

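Immediate-early and MAPK response genes lay below 0 in most animals. Of 31 tested members 26 were lower with inhibitor, against 50.3% of all tested genes, with a median of -0.29. Of the 31, 6 were lower in all 5 animals (6.2% of all tested genes). At an unadjusted p below 0.05, 4 were lower (2.91% of all tested genes). The median within-animal difference was 0.29 in animal 1 and between -0.46 and -0.26 in the other 4. Klf6, a zinc finger factor induced early by growth signals and injury, was at 689, 764, 829, 871 and 785 CPM with vehicle and 668, 569, 621, 729 and 610.5 CPM with inhibitor (-0.30 ± 0.13, lower in 5 of 5). Fosl1, the member with the smallest p, ran from -1.78 to -1.36 on the log2 scale over the alternative fits. No member of this list was called with edgeR in the main fit, with separate pairs or in the unstretched libraries alone.

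Genes of cholesterol and fatty acid synthesis lay slightly above 0, 20 of 25 (4138 of all 8320 tested genes), with a median of 0.11. At an unadjusted p below 0.05, 3 were higher (2.56% of all tested genes). Hmgcs1, which makes the precursor of mevalonate, was higher in all 5 animals (0.34 ± 0.14, from 358 ± 74.3 to 452 ± 52.5 CPM), and no member was called in those 3 fits. Among 28 antioxidant and glutathione genes the median was 0.01, with 4 lower at an unadjusted p below 0.05 (2.91% of all tested genes). Among these 4 were Srxn1 (sulfiredoxin, -0.62 ± 0.22) and Txnrd1 (thioredoxin reductase, -0.45 ± 0.19). Oxidative phosphorylation (38 tested, median 0.03), lysosome and autophagy (33, 0.02), cell cycle (38, -0.03), p53 targets and apoptosis regulators (31, 0.02) and ion and water transport (17, 0.04) lay within 0.05 of 0.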
